A study of Homo sapiens with 32 samples.

Results

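Small nucleolar RNA host genes were followed across 8 groups of cultured human tumour cells. The members were the genes of the count table with a symbol of the form SNHG and a number, plus GAS5, ZFAS1, EPB41L4A-AS1 and CCDC18-AS1, which gave 32 symbols (28 SNHG genes and the 4 others) out of 60728 rows. A549, a lung adenocarcinoma line, and SK-MEL-147, a melanoma line, were left untreated or were given doxorubicin, a DNA-damaging anthracycline, palbociclib, an inhibitor of the cell cycle kinases CDK4 and CDK6, or INK128, an inhibitor of the growth-controlling kinase mTOR. Doxorubicin was used at 100 nM in both lines, palbociclib at 5 µM in A549 and 1 µM in SK-MEL-147, and INK128 at 200 nM in A549 and 100 nM in SK-MEL-147. Doxorubicin and palbociclib, used by the study to induce senescence, were withdrawn after 72 h. INK128, used to induce a state likened to embryonic diapause, was renewed with the medium every 3 days. RNA was collected on day 7. Every sample label gives SK-MEL-147, while the series' design text names SK-Mel-103 for INK128; the sample labels were followed. Polyadenylated RNA was sequenced in 32 libraries, 4 per group. In A549, libraries named 2 and 2-2 both carried replicate number 2 and were summed, so n = 3 per A549 group and n = 4 per SK-MEL-147 group.

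Most of these genes carry small nucleolar RNAs (snoRNAs) or the related scaRNAs in their introns. The excised snoRNAs guide methylation (box C/D) or pseudouridylation (box H/ACA) of ribosomal RNA, and the scaRNAs act on spliceosomal RNA in Cajal bodies. The spliced exons mostly encode no protein, and for several hosts, GAS5 among them, they are degraded by nonsense-mediated decay when ribosomes engage them. Several hosts, like ribosomal protein genes, start transcription in a 5′ terminal oligopyrimidine tract, the sequence through which mTOR controls translation. GAS5 took its name from its accumulation in growth-arrested cells.

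The library totals ran from 28150560 to 33331334 counts in A549 and from 17929732 to 32407057 in SK-MEL-147. Mitochondrial genes took 18.3% and 17.3% of the counts in replicate 1 of A549 doxorubicin and palbociclib. In A549 that share was 11.5% to 14.8% with INK128 and 5.98% to 8.42% untreated, and it was 2.38% to 5.89% in SK-MEL-147. Of 8 epithelial marker genes, 1 was under 1 CPM (reads of a gene scaled to a common library size within each line) in untreated A549, and their summed level was 9561 CPM there and 4167 CPM with INK128. Of 8 melanocyte markers, 5 were under 1 CPM in untreated SK-MEL-147, MLANA and TYR among them, while SOX10 averaged 313 CPM, and 588 CPM with INK128. The summed level of 6 fibroblast markers in SK-MEL-147 was 20.7 CPM untreated, 103 CPM with doxorubicin, 136 CPM with palbociclib and 14.7 CPM with INK128. Of these markers, 4 were under 1 CPM untreated and with doxorubicin, 3 with palbociclib and 5 with INK128, so few genes carried the sums. The part of these shifts in the results was not tested, except that the calls were repeated with mitochondrial genes left out. In bulk samples, fewer cells of a type and less RNA per cell cannot be told apart. The labels did not say whether replicates were separate cultures, so p-values measure the spread between these samples, which may be technical.

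Transcript starts are shown for 9 of the 16 hosts whose GENCODE 29 annotation (GRCh38) holds a transcript that begins with a C followed by at least 4 pyrimidines. They were selected, after the values were seen, as hosts that the results below turn on. The 30 bases are given 5′ to 3′ with the tract in capitals.
GAS5: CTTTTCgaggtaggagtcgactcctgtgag
SNHG16: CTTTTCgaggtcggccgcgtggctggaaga
SNHG29: CTTTTCattcccgttgttatggagggccac
SNHG19: CTTTTCggggtcgagtccgagggggaagag
SNHG5: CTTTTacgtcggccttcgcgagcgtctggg
ZFAS1: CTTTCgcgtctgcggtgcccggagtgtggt
SNHG8: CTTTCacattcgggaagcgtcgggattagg
SNHG12: CCTTTCTCCCCgccgcattcccggtgtcga
SNHG3: CCTTTTTggagacagattcgcagtggtcgc

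The GAS5 start lies at chr1:173867960-173867989 on the minus strand and was shared by 6 annotated transcripts. The SNHG16 start lies at chr17:76557769-76557798 on the plus strand, that of SNHG19 at chr16:2155329-2155358 on the minus strand, and that of SNHG5 at chr6:85678704-85678733 on the minus strand. The ZFAS1 start lies at chr20:49278642-49278671 on the plus strand, that of SNHG8 at chr4:118278758-118278787 on the plus strand, that of SNHG12 at chr1:28581844-28581873 on the minus strand, and that of SNHG3 at chr1:28506043-28506072 on the plus strand. The printed SNHG29 bases begin at position 16439037 of chromosome 17, plus strand, and cross a splice junction. GAS5, SNHG16, SNHG29 and SNHG19 share the letters CTTTTC. Such a start was annotated for 16 of the 32 members and for 6.58% of all GENCODE genes. Genes with more transcripts have more chances of a match: among genes with 5 or more transcripts the share was 20.83%, and 12 of 19 such members had one. The tract start need not be the outermost annotated start. Among the starts shown it is that for SNHG19, and it lies 3 bases inside the annotated locus for SNHG16, 15 for SNHG5, 49 for SNHG8, 63 for SNHG3, 215 for SNHG29, 464 for ZFAS1, 893 for GAS5 and 1259 for SNHG12. For SNHG1 (1 of 25 transcripts) it lies 435 bases inside and for CCDC18-AS1 (1 of 24) 12627 bases inside. In RefSeq promoters (28 members matched), the tract stood exactly at the start in 7 members and in 4.04% of all promoters, and within 5 bases in 12 members and in 21.05% of all. The E-box CACGTG, searched in the 250 bases before to 50 after the RefSeq start (the palindrome reads alike on both strands), was in the promoters of SNHG7 and SNHG30, 2 of 28, against 7.44% of all promoters. The TATA motif TATAAA, on either strand, was in 4 of 28, against 11.95%.

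The genes themselves (GENCODE 29, GRCh38) lie at chr17:16438822-16478678 for SNHG29 (ENSG00000175061), chr1:173863900-173868882 for GAS5 (ENSG00000234741), chr5:112160526-112164276 for EPB41L4A-AS1 (ENSG00000224032), chr20:49278178-49295738 for ZFAS1 (ENSG00000177410), chr1:93262186-93346025 for CCDC18-AS1 (ENSG00000223745), chr11:62851988-62855914 for SNHG1 (ENSG00000255717), chr7:44983023-44986961 for SNHG15 (ENSG00000232956) and chr16:1964959-1965509 for SNHG9 (ENSG00000255198). The symbol SNHG28 has 2 rows. The row used, ENSG00000256029, is typed as protein coding by GENCODE 29, and its exons overlap those of CFAP45 and VSIG8 on the same strand. The other row, typed as a long intergenic non-coding RNA, has 0 counts. By RefSeq positions, 29 members held 146 snoRNA or scaRNA genes. Box C/D snoRNAs alone were held by 13 hosts, box H/ACA snoRNAs alone by 10, scaRNAs alone by 4 and both snoRNA kinds by 2, GAS5 and SNHG12, while CCDC18-AS1, SNHG27 and SNHG28 held none. SNHG14, the host of the SNORD115 and SNORD116 clusters on chromosome 15, held 83. GENCODE 29 differs from RefSeq for some hosts. It places the snoRNA gene RF00570 inside SNHG28 and the box H/ACA snoRNA SNORA50C inside SNHG25, a host with box C/D alone by RefSeq. The polyadenylated libraries do not measure the snoRNAs: of the 135 with a row in the table, 118 had no count, and the 17 others summed to 4892 counts, 2546 of them from SNORD104, against 1547959 counts for the hosts. What follows describes host RNA and not snoRNA levels.

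In untreated A549 the members summed to 1112 ± 43.7 CPM (SD, n = 3) and in untreated SK-MEL-147 to 2108 ± 225 CPM (SD, n = 4). SNHG29, which carries 3 box C/D snoRNAs, made 25.05% to 27.29% of that sum in the untreated A549 samples and 30.94% to 33.12% in those of SK-MEL-147. Over the samples of all 8 groups its share ran from 25.05% to 48.09%, the highest being an INK128 sample of SK-MEL-147. Per kilobase of annotated exon, SNHG29 stood at 77.0 ± 6.36 CPM in untreated A549, above SNHG19 at 33.3 CPM, SNHG5 at 31.6 CPM, SNHG6 at 30.4 CPM, SNHG16 at 22.3 CPM, GAS5 at 22.0 CPM, SNHG8 at 21.9 CPM and SNHG1 at 21.4 CPM, the last 4 of which lay within their spread of each other. In untreated SK-MEL-147 it stood at 181 ± 22.5 CPM per kilobase, followed by SNHG5 at 126 CPM and SNHG6 at 52.9 CPM and SNHG8 at 44.9 CPM. At the other end, SNHG18 had 9 counts in all libraries together and SNHG22 had 69, and neither was tested. SNHG21, SNHG27, SNHG28 and SNHG31 averaged under 1 CPM in untreated A549.

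**Figure D1:**
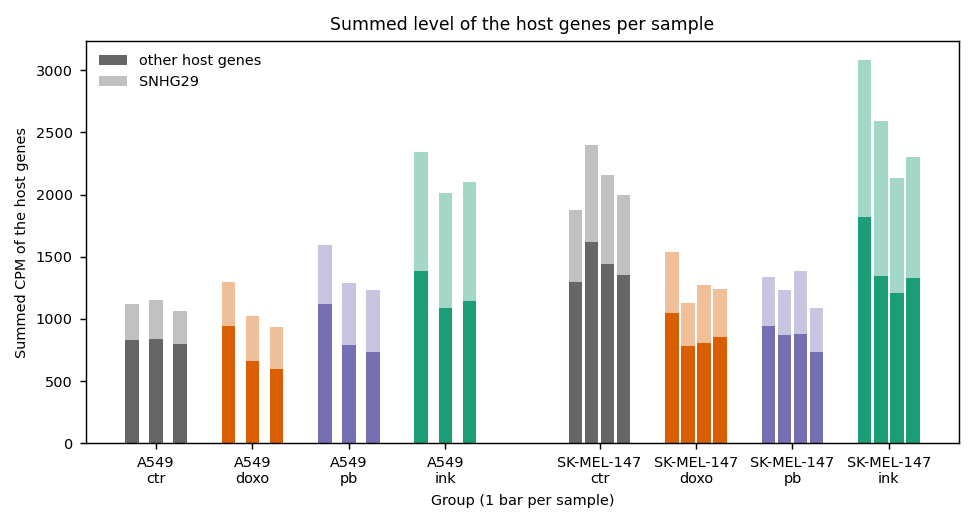
Summed CPM of the host genes in each sample (bars, 1 per sample; vertical axis in CPM on each line's own scale), with the pale upper section showing SNHG29. The INK128 bars of A549 run from 2011 to 2338 CPM against 1066 to 1153 CPM in the controls, while the doxorubicin and palbociclib bars of SK-MEL-147 all lie below its controls.

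The summed level moved differently with the drugs. In A549 it was 1112 CPM untreated, 1087 ± 189 with doxorubicin, 1371 ± 197 with palbociclib and 2151 ± 169 with INK128 (SD, n = 3 each). The lowest INK128 sample, at 2011 CPM, exceeded the highest sample of every other A549 group. In SK-MEL-147 it was 1295 ± 174 CPM with doxorubicin, 1262 ± 133 with palbociclib and 2529 ± 414 with INK128 (SD, n = 4 each). All 8 doxorubicin and palbociclib samples, at most 1538 CPM, lay below the lowest control at 1877 CPM, and the INK128 samples, from 2137 CPM, overlapped the controls, which reached 2397 CPM. Without SNHG29 the INK128 and control means of SK-MEL-147 were 1427 CPM and 1428 CPM.

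INK128 raised a small group of hosts in both lines and lowered SNHG9. In A549, 9 of 29 tested members were higher than control and 2 were lower at an adjusted p below 0.05 (edgeR quasi-likelihood test, Benjamini-Hochberg over all genes), where 20.5% of all 19550 tested genes were higher and 19.7% were lower. In SK-MEL-147, 8 of 29 were higher and 4 lower, where 29.8% and 28.9% of 18516 genes were. The share of members called higher was 31.0% in A549 and 27.6% in SK-MEL-147, the latter below its background, and the share called lower was 6.90% and 13.8%. The median change of the members was 0.26 in A549 and -0.03 in SK-MEL-147 on the log2 scale, beside 0.01 and 0.03 for all genes.

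SNHG29 stood at 287, 315 and 267 CPM in the untreated A549 samples and at 952, 921 and 957 CPM with INK128. It rose by 1.70 ± 0.10 (log2 fold change ± SE, adjusted p = 7.39e-06), a 3.26-fold change, with no overlap of the groups. In SK-MEL-147 it stood at 581, 777, 715 and 650 CPM untreated and at 1263, 1248, 928 and 970 CPM with INK128. The rise there was 0.70 ± 0.16 (adjusted p = 0.0012), again without overlap, and it was smaller than in A549 by 1.03 ± 0.20 (line difference, joint fit of both lines, adjusted p = 0.00124). LRRC75A, which overlaps SNHG29 on the other strand, changed by 0.81 ± 0.33 in A549 (adjusted p = 0.0683) and rose by 2.14 ± 0.53 in SK-MEL-147 (adjusted p = 0.00271).

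GAS5, host of 10 box C/D and 1 box H/ACA snoRNA, stood at 85.5, 80.6 and 73.6 CPM in untreated A549 and at 288, 227 and 213 CPM with INK128. It rose 3.03-fold, by 1.60 ± 0.26 on the log2 scale (adjusted p = 0.000813). In SK-MEL-147 it went from 106, 109, 97.9 and 91.4 CPM to 298, 211, 149 and 184 CPM, a rise of 1.06 ± 0.19 (adjusted p = 0.000205). Every INK128 sample lay above every control in both lines, and the line difference of -0.56 ± 0.33 did not pass the test (adjusted p = 0.297). EPB41L4A-AS1, which carries the box H/ACA snoRNA SNORA13, went from 10.5, 10.8 and 13.6 CPM to 45.0, 29.6 and 43.6 CPM in A549, a rise of 1.76 ± 0.30 (adjusted p = 0.000963). In SK-MEL-147 it went from 29.2, 33.1, 24.8 and 22.5 CPM to 83.7, 46.4, 35.7 and 45.2 CPM, a rise of 0.95 ± 0.24 (adjusted p = 0.00285). Its partner on the other strand, EPB41L4A, changed by -0.46 ± 0.32 in A549 (adjusted p = 0.269) and rose by 1.66 ± 0.31 in SK-MEL-147 (adjusted p = 0.000247). The strand setting of the authors' counting is not given in the sources used here, so reads of such partners and of the host cannot be told apart.

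CCDC18-AS1, which holds no annotated snoRNA, had the largest rise of the members with INK128 in each line. It went from 3.88, 3.00 and 2.91 CPM to 21.4, 17.7 and 22.1 CPM in A549 (log2 fold change 2.64 ± 0.40, adjusted p = 0.000548). In SK-MEL-147 it went from 2.03, 1.24, 0.939 and 1.08 CPM to 22.4, 11.1, 8.55 and 7.78 CPM (3.22 ± 0.49, adjusted p = 4.08e-05). CCDC18, on the other strand, changed by -0.43 ± 0.19 in A549 (adjusted p = 0.0952) and fell by 0.60 in SK-MEL-147 (SE 0.23, adjusted p = 0.0347), so the pair moved in opposite directions there. SNHG28, without a snoRNA by RefSeq positions but not by GENCODE, rose by 2.10 ± 0.44 in A549 (adjusted p = 0.00325) from 0.252, 0.108 and 0.100 CPM to 0.468, 0.656 and 0.809 CPM. In SK-MEL-147 it rose by 2.76 ± 0.43 (adjusted p = 4.89e-05) from at most 0.716 CPM to between 2.17 and 3.897 CPM. AL590560.1, which overlaps it on the other strand, rose by 3.57 ± 0.32 in A549 and by 3.13 ± 0.43 in SK-MEL-147. The SNHG28 row used is annotated as protein coding, and its reads cannot be told apart from those of CFAP45 and VSIG8 on the same strand.

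SNHG32, host of SNORD48 and SNORD52, rose with INK128 by 1.35 ± 0.17 in A549 (adjusted p = 0.000218) and by 0.52 ± 0.15 in SK-MEL-147 (adjusted p = 0.00801). The line difference of -0.85 ± 0.24 passed the test (adjusted p = 0.0181). ZFAS1, host of the SNORD12 family, went from 32.2, 31.4 and 28.6 CPM to 80.8, 49.98 and 55.1 CPM in A549, a rise of 1.01 ± 0.32 (adjusted p = 0.0268). Its change in SK-MEL-147 was 0.30 ± 0.20 (adjusted p = 0.214), where 1 sample stood at 91.1 CPM and the other 3 at 45.2 to 51.01 CPM, within the range of the controls. SNHG8, host of SNORA24, rose by 0.88 ± 0.17 in A549 (adjusted p = 0.00208) and changed by 0.13 ± 0.12 in SK-MEL-147 (adjusted p = 0.381), a line difference of -0.77 ± 0.21 (adjusted p = 0.0155). SNHG14 rose by 0.80 ± 0.15 in A549 (adjusted p = 0.00193) and changed by -0.03 ± 0.15 in SK-MEL-147 (adjusted p = 0.89), a line difference of -0.84 ± 0.22 (adjusted p = 0.0112). In SK-MEL-147 the remaining rises were those of SNHG19 (0.63 ± 0.22, adjusted p = 0.0224) and SNHG11 (0.42 ± 0.14, adjusted p = 0.0155).

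Among the members lowered by INK128, SNHG9, host of SNORA78, fell in both lines. It went from 3.56, 4.98 and 5.49 CPM to 2.68, 2.02 and 1.65 CPM in A549, a fall with a log2 fold change of -1.15 ± 0.27 (adjusted p = 0.00632). In SK-MEL-147 it went from 1.88, 2.92, 1.59 and 1.75 CPM to 1.62, 1.03, 1.17 and 1.15 CPM (-0.71 ± 0.24, adjusted p = 0.0195). The A549 groups did not overlap and the SK-MEL-147 groups did. SNHG30, host of SNORD7, fell in A549 (-0.92 ± 0.27, adjusted p = 0.0176). SNHG1, host of 8 box C/D snoRNAs, stood at 86.8, 77.9 and 76.5 CPM in untreated A549 and at 91.4, 83.0 and 79.3 CPM with INK128, with overlap. In SK-MEL-147 it fell from 119, 128, 129 and 126 CPM to 86.0, 46.9, 60.6 and 69.2 CPM (-0.93 ± 0.22, adjusted p = 0.00168), and the lines differed by -1.02 ± 0.34 (adjusted p = 0.0463). SNHG15 (-0.80 ± 0.16, adjusted p = 0.000435) and SNHG17 (-0.36 ± 0.13, adjusted p = 0.0248) fell in SK-MEL-147 as well.

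With mitochondrial genes left out, all 11 A549 calls and all 12 SK-MEL-147 calls were kept. The labels state no pairing, but same-numbered samples deviated together in this comparison in both lines (correlation above 0.1 in every pair). A fit with the replicate number as a block kept all 11 A549 calls and all 12 SK-MEL-147 calls. In A549 it called 11 members higher and 4 lower, adding SNHG5 (0.34, adjusted p = 0.037), SNHG11, SNHG17 and SNHG27, and in SK-MEL-147 it called 8 higher and 6 lower, adding SNHG4 (-0.81, adjusted p = 0.007) and SNHG12. Over all genes the blocked fit called 10729 of 19550 in A549 and 12088 of 18516 in SK-MEL-147 in either direction. Single libraries decided some calls: without A549 INK128 replicate 2 or 3 only 1 member was called lower there, SNHG30 losing its call (adjusted p = 0.051 and 0.055), and the ZFAS1 call in A549 was lost without any 1 of the 3 controls or without INK128 replicate 1 (0.77, adjusted p = 0.099). In SK-MEL-147 the number called lower was 2 without control replicate 2 or INK128 replicate 2 and 7 without INK128 replicate 1; SNHG9 lost its call without either of those libraries (control replicate 2: -0.48, adjusted p = 0.101; INK128 replicate 2: -0.63, adjusted p = 0.059). SNHG17 lost its call there without control replicate 1 or 2 or INK128 replicate 2, 3 or 4 (adjusted p = 0.058 to 0.091).

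**Figure D2:**
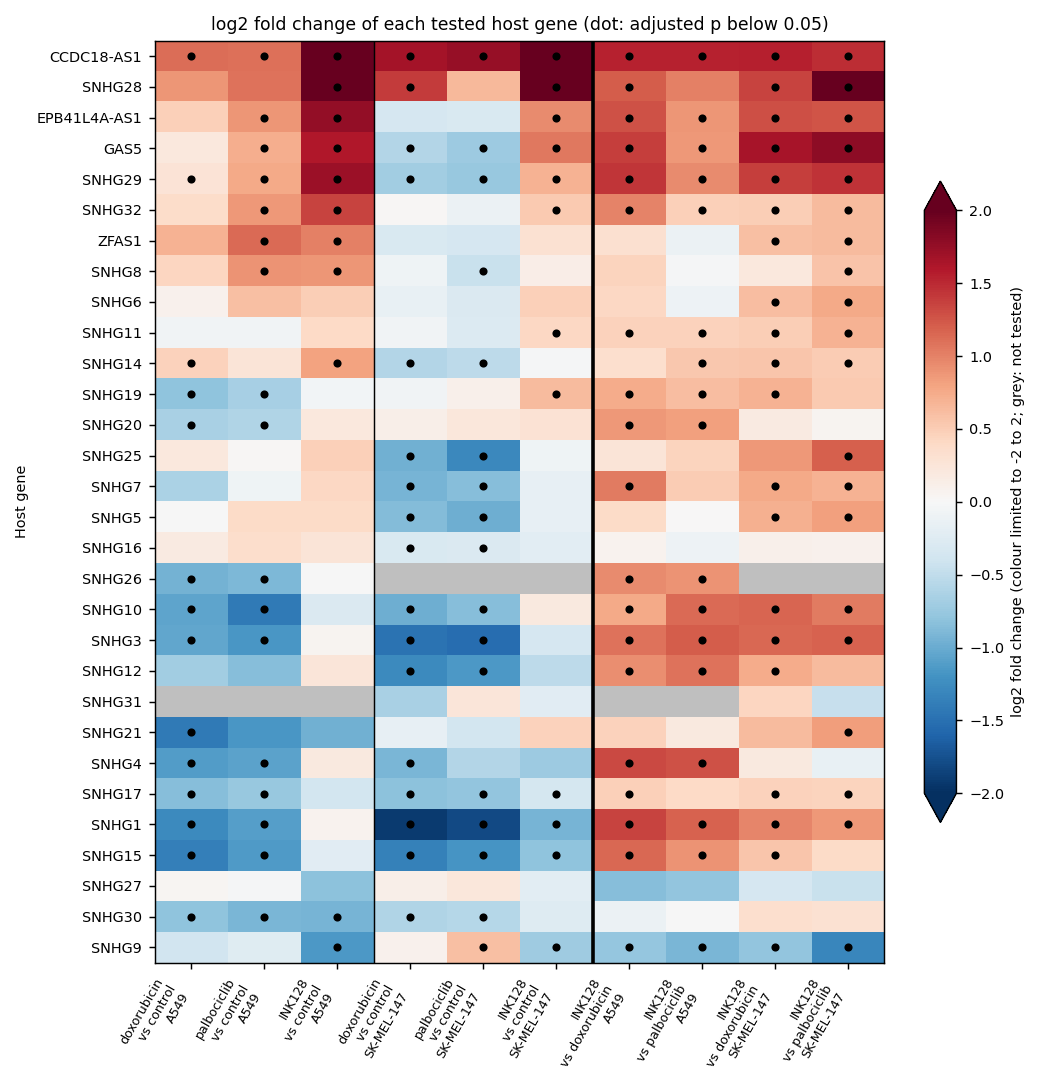
log2 fold change (colour, limited to -2 to 2) of each tested host gene (rows, ordered by the mean INK128 response) in 10 comparisons (columns; the heavy line separates comparisons with control from INK128 against the other drugs). Dots mark adjusted p below 0.05 and grey marks genes not tested. In the 4 columns at the right, 16 to 19 genes are called higher and 1, SNHG9, lower; in the columns of doxorubicin and palbociclib 10 to 15 genes are called lower.

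Doxorubicin lowered more of the hosts than it raised, and SNHG1, SNHG3 and SNHG15 fell in both lines. In A549, 3 of 29 members were higher and 11 lower than control, where 22.4% of all genes were higher and 20.9% lower. In SK-MEL-147, 2 of 29 were higher and 15 lower, where 30.9% and 28.9% were. The lowered share of members was 37.9% in A549 and 51.7% in SK-MEL-147, and the members' median change was -0.07 and -0.58, beside 0.00 and 0.02 for all genes.

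SNHG1 went from 86.8, 77.9 and 76.5 CPM to 39.2, 32.1 and 28.2 CPM with doxorubicin in A549, a 2.43-fold fall (-1.28 ± 0.22, adjusted p = 0.00077). In SK-MEL-147 it went from between 119 and 129 CPM to 46.8, 32.3, 20.6 and 34.1 CPM, a 3.75-fold fall (-1.91 ± 0.22, adjusted p = 1.71e-06). SNHG15, host of SNORA9, went from 20.4, 22.5 and 19.8 CPM to 8.80, 8.22 and 7.20 CPM in A549 (-1.37 ± 0.14, adjusted p = 2.02e-05) and from 35.1, 29.7, 30.9 and 27.3 CPM to 15.7, 10.6, 10.2 and 11.5 CPM in SK-MEL-147 (-1.36 ± 0.16, adjusted p = 1.88e-06). The groups of both genes were fully apart in both lines. SNHG3, host of SNORA73A and SNORA73B, fell by 1.04 in A549 (SE 0.29, adjusted p = 0.0123) and by 1.47 in SK-MEL-147 (SE 0.24, adjusted p = 4.99e-05). RCC1, the protein-coding gene whose exons overlap SNHG3 on the same strand, fell by 1.33 (SE 0.12, adjusted p = 1.2e-05) and by 1.81 (SE 0.14, adjusted p = 1.2e-08), so the reads of these loci cannot be told apart.

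SNHG10, host of the scaRNA SCARNA13, fell with doxorubicin in A549 (-1.05 ± 0.24, adjusted p = 0.00398) and SK-MEL-147 (-0.97 ± 0.18, adjusted p = 0.00016). GLRX5, which overlaps SNHG10 on the other strand, held 47718 counts over all libraries against 8103 for SNHG10. It changed by -0.45 ± 0.23 in A549 (adjusted p = 0.137). SNHG17 fell in both lines too (-0.85 ± 0.17 and -0.82 ± 0.13), as did SNHG30 (-0.80 ± 0.27 and -0.60 ± 0.20, adjusted p = 0.030 and 0.0178) and SNHG4 (-1.11 ± 0.14 and -0.91 ± 0.35, adjusted p = 9.63e-05 and 0.0325). The SNHG30 call in A549 was lost without any 1 of the 3 controls, without doxorubicin replicate 2 or 3, or with library 2 in place of the sum (adjusted p = 0.062 to 0.109), and in SK-MEL-147 without doxorubicin replicate 4 (adjusted p = 0.081). The SNHG4 call in SK-MEL-147, where the groups overlapped, was lost without control replicate 1, 2 or 3 or doxorubicin replicate 2, 3 or 4 (adjusted p = 0.054 to 0.093). SIL1, opposite SNHG4, rose in both lines (1.05 ± 0.11 and 2.24 ± 0.24), and MATR3, which shares exons with SNHG4 on its strand, changed by -0.81 ± 0.32 and -0.06 ± 0.35. SNHG26 (-0.95 ± 0.14), SNHG19 (-0.80 ± 0.22), SNHG20 (-0.65 ± 0.18) and SNHG21 (-1.42 ± 0.49) fell in A549, as did AC105339.2 (-1.05 ± 0.29), which overlaps SNHG21 on the same strand. In SK-MEL-147 GAS5 fell from between 91.4 and 109 CPM to 88.1, 64.6, 58.6 and 58.3 CPM (-0.58 ± 0.19, adjusted p = 0.0147). SNHG29 fell there to 489, 343, 463 and 393 CPM (-0.69 ± 0.16, adjusted p = 0.00113), and SNHG5, host of SNORD50A and SNORD50B, fell from 254, 453, 357 and 354 CPM to 199, 144, 223 and 207 CPM (-0.87 ± 0.18, adjusted p = 0.000404). SNHG7, SNHG12, SNHG14, SNHG16 and SNHG25 completed the 15 lowered members. Of these, GAS5 lost its call without doxorubicin replicate 4 (adjusted p = 0.056), SNHG16 without control replicate 2, without doxorubicin replicate 2 or 4 or with no filter (0.060 to 0.107), and SNHG25 without control replicate 2 or 3 or doxorubicin replicate 2, 3 or 4 (0.055 to 0.107).

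The rises with doxorubicin were few. CCDC18-AS1 rose in A549 (1.11 ± 0.39, adjusted p = 0.0365), where replicate 1 stood at 11.8 CPM and the other 2 at 4.72 and 4.80 CPM, and in SK-MEL-147 (1.67 ± 0.48, adjusted p = 0.00677), where the lowest treated sample, at 2.01 CPM, lay below the highest control at 2.03 CPM. CCDC18 fell by 1.70 in A549 (SE 0.20) and by 2.04 in SK-MEL-147 (SE 0.24). DR1, which also overlaps CCDC18-AS1 on the other strand, changed by -0.62 ± 0.12 in A549 (adjusted p = 0.00142). SNHG28 rose in SK-MEL-147 (1.40 ± 0.44, adjusted p = 0.0111). SNHG14 rose in A549 (0.46 ± 0.15, adjusted p = 0.0281) and SNHG29 stood there at 354, 361 and 339 CPM against at most 315 CPM untreated (0.28 ± 0.10, adjusted p = 0.0401). The SNHG29 call was lost under 9 of 16 alternatives (adjusted p = 0.058 to 0.385), among them library size alone, no filter, control replicate 1 or 3 left out and any 1 doxorubicin replicate left out. The SNHG14 call was lost under 7 of 16 (adjusted p = 0.057 to 0.118), among them library size alone, no filter, control replicate 1 or 2 left out and doxorubicin replicate 2 left out. SNRPN, which shares exons with SNHG14 on the same strand, rose in A549 by 1.33 ± 0.21 and in SK-MEL-147 by 1.05 ± 0.14.

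Single libraries moved these counts in A549. Without any 1 of the controls, or without doxorubicin replicate 1 or 2, a single member was called higher; CCDC18-AS1 changed by 0.56 without doxorubicin replicate 1 (adjusted p = 0.183), the library in which mitochondrial genes took 18.3% of the counts. The number called lower was 7 without doxorubicin replicate 2 and 6 without replicate 3, and the SNHG3 call was then lost (-0.86 and -0.90). In A549, where same-numbered samples deviated together, the blocked fit kept all 14 calls and called 6 members higher, ZFAS1 (0.60, adjusted p = 0.012), SNHG8 (0.42, adjusted p = 0.029) and SNHG32 being added, and 13 lower, SNHG7 and SNHG12 being added. Over all genes that fit called 11014 of 19550 in either direction.

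**Figure D3:**
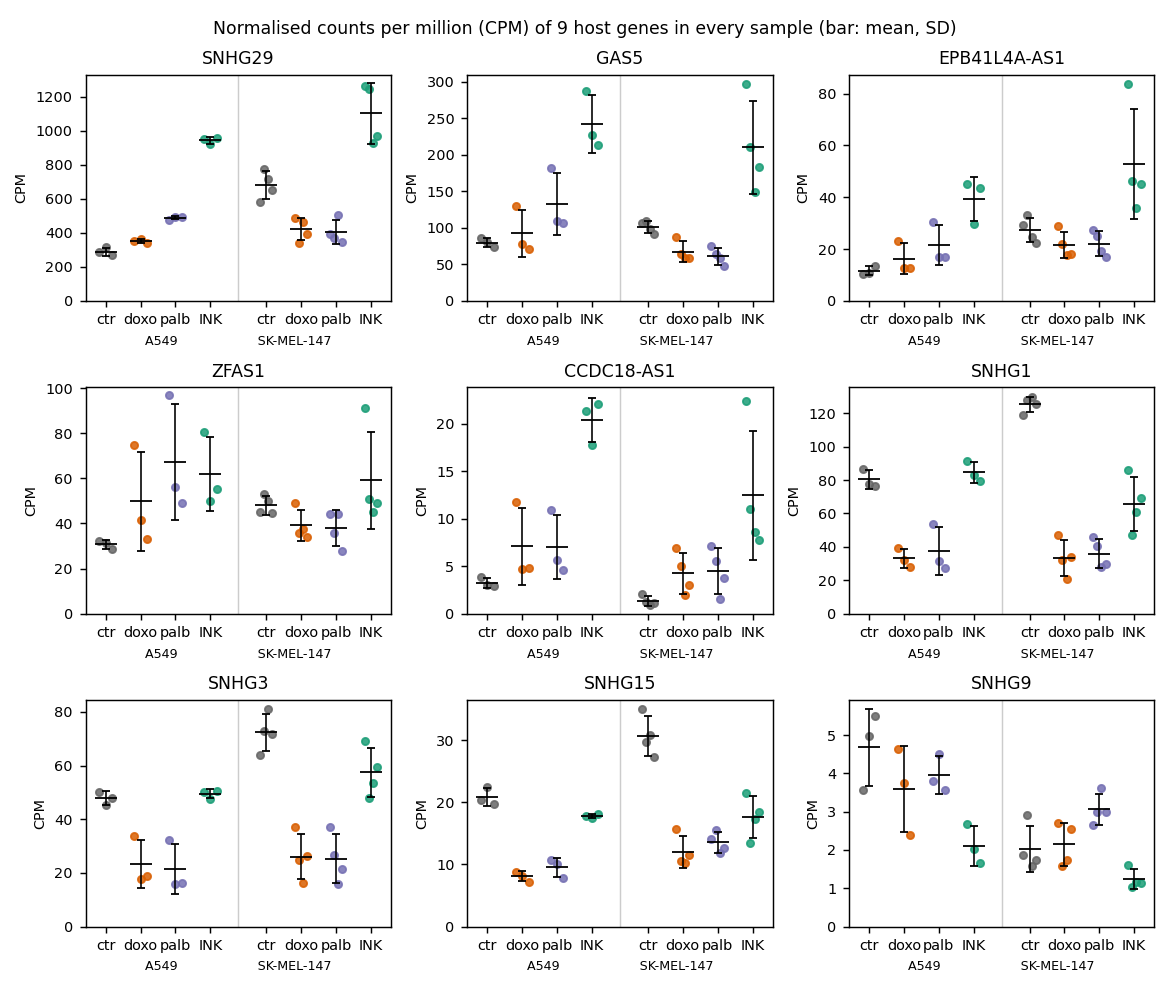
CPM of 9 host genes (panels; vertical axes start at 0) in every sample of the 8 groups, with points for samples and bars for mean and SD (n = 3 in A549, n = 4 in SK-MEL-147). GAS5, EPB41L4A-AS1 and CCDC18-AS1 are highest with INK128 in both lines, SNHG1, SNHG3 and SNHG15 lowest with doxorubicin and palbociclib, and SNHG9 lowest with INK128.

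Palbociclib lowered SNHG1, SNHG3, SNHG10 and SNHG15 in both lines, and lowered SNHG29, SNHG8 and GAS5 in SK-MEL-147. In A549 it raised SNHG29 and SNHG8, and also GAS5 and ZFAS1, whose calls were lost without palbociclib replicate 1. In A549, 7 of 29 members were higher and 10 lower than control, where 22.2% of all genes were higher and 21.1% lower. The share of members called higher there, 24.1%, was near that of all genes. In SK-MEL-147, 2 were higher and 15 lower, where 29.7% and 28.7% were. The members' median change was -0.06 in A549 and -0.44 in SK-MEL-147, beside 0.02 and 0.00 for all genes. The doxorubicin and palbociclib comparisons share their control samples.

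SNHG1 fell with palbociclib to 53.6, 31.4 and 27.4 CPM in A549 (-1.10 ± 0.22, adjusted p = 0.00194) and to 45.8, 40.7, 27.7 and 29.8 CPM in SK-MEL-147 (-1.80 ± 0.22, adjusted p = 3.58e-06). SNHG3 fell by 1.16 in A549 (SE 0.29, adjusted p = 0.0066) and by 1.52 in SK-MEL-147 (SE 0.24, adjusted p = 4.14e-05), and SNHG15 by 1.13 (SE 0.14) and 1.18 (SE 0.16). SNHG10 had the largest fall of the members in A549, from 10.0, 10.8 and 10.4 CPM to 5.24, 3.61 and 2.85 CPM (-1.42 ± 0.24, adjusted p = 0.000625). Its reads cannot be told apart from those of GLRX5 on the other strand. SNHG4 (-1.07 ± 0.14), SNHG17 (-0.76 ± 0.17), SNHG19, SNHG20, SNHG26 and SNHG30 fell in A549 as well. In SK-MEL-147, SNHG25, host of SNORD104, fell from 1.79, 2.28, 2.07 and 1.75 CPM to 1.26, 0.831, 0.616 and 0.532 CPM (-1.29 ± 0.38, adjusted p = 0.00863), without overlap. SNHG5 fell there to 164, 174, 233 and 150 CPM (-0.98 ± 0.18, adjusted p = 0.000161).

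In A549 palbociclib raised SNHG29 from at most 315 CPM to 478, 496 and 493 CPM (0.76 ± 0.10, adjusted p = 0.00012) and GAS5 from at most 85.5 CPM to 182, 109 and 107 CPM (0.73 ± 0.26, adjusted p = 0.0364). ZFAS1 rose to 96.9, 56.0 and 49.0 CPM (1.13 ± 0.32, adjusted p = 0.0145), SNHG8 to 39.5, 38.8 and 34.8 CPM from at most 22.02 CPM (0.90 ± 0.17, adjusted p = 0.00131), and SNHG32 by 0.87 ± 0.17 (adjusted p = 0.00164). EPB41L4A-AS1 rose by 0.88 ± 0.29 (adjusted p = 0.0287) and CCDC18-AS1 by 1.11 ± 0.39 (adjusted p = 0.0371). The treated samples of all 7 lay above the controls, replicate 1 being the highest treated sample of 6 of them and SNHG29 the exception. Groups did not overlap, in either direction, for 20 of the 29 tested members, and the share over all genes was not counted. ZNFX1, opposite ZFAS1, rose by 1.31 ± 0.18 in A549 with palbociclib and by 1.25 ± 0.20 in SK-MEL-147, where ZFAS1 changed by -0.34 ± 0.20.

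Without palbociclib replicate 1, in which mitochondrial genes took 17.3% of the counts, 3 members were called higher in A549, and GAS5 (0.45, adjusted p = 0.155), EPB41L4A-AS1 (0.56, adjusted p = 0.121), CCDC18-AS1 (0.67, adjusted p = 0.163) and ZFAS1 (0.79, adjusted p = 0.061) lost their calls. GAS5 and CCDC18-AS1 also lost theirs without any 1 of the 3 controls or with library 2-2 alone, EPB41L4A-AS1 without control replicate 1 or 2 or with library 2 alone, and ZFAS1 without control replicate 3 (adjusted p = 0.050 to 0.110). SNHG30 lost its call in A549 without palbociclib replicate 2 or 3 (adjusted p = 0.064 and 0.069); 4 members were called higher without control replicate 2 or 3. With replicate 1 of all groups left out, 9 members were called higher and 13 lower, where 11252 of 20807 genes were called in either direction. With the replicate block 10 were higher and 12 lower, where 11001 of 19550 genes were called. Both fits kept all 17 calls. The block added SNHG5 (0.35, adjusted p = 0.032), SNHG6 (0.51, adjusted p = 0.026) and SNHG16 (0.33, adjusted p = 0.038) to the higher members in A549. In SK-MEL-147, where same-numbered samples also deviated together (lowest correlation 0.107), it added EPB41L4A-AS1 (-0.33, adjusted p = 0.048) and SNHG4 (-0.68, adjusted p = 0.019) to the lower ones. There the block called 12042 of 18516 genes in either direction. In SK-MEL-147 the call of SNHG9 as higher (0.59 ± 0.24, adjusted p = 0.0394) was lost without any 1 of 6 of the 8 libraries and with no filter. That of SNHG30 as lower was lost without control replicate 2 or 3 or palbociclib replicate 2, 3 or 4 (adjusted p = 0.051 to 0.097), and that of SNHG16 without control replicate 2, without palbociclib replicate 2 or 4 or with no filter (adjusted p = 0.055 to 0.113).

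Set against each other, INK128 cultures held more of most hosts than cultures given the other drugs. Against doxorubicin, 18 of 29 members were higher and 1 was lower in A549, where 21.2% of all genes were higher and 19.7% lower, and 19 were higher and 1 lower in SK-MEL-147, where 24.8% and 24.0% were. Against palbociclib, 16 were higher and 1 lower in A549 (22.0% and 20.5% of all genes), and 19 higher and 1 lower in SK-MEL-147 (26.8% and 25.8%). The lower member was SNHG9 in all 4 comparisons. The members' median difference from doxorubicin was 0.76 in A549 and 0.62 in SK-MEL-147, beside 0.01 and 0.02 for all genes. These comparisons share the INK128 samples.

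GAS5 was higher with INK128 than with doxorubicin by 1.39 ± 0.26 in A549 (adjusted p = 0.00153) and 1.64 ± 0.20 in SK-MEL-147 (adjusted p = 6.17e-06). SNHG29 was higher by 1.43 ± 0.10 (adjusted p = 7.7e-06) and 1.39 ± 0.16 (adjusted p = 4.33e-06). SNHG1 and SNHG3, neither of which was called higher than control with INK128, were higher than with doxorubicin by 1.35 ± 0.22 and 1.08 ± 0.29 in A549 and by 0.97 ± 0.22 and 1.14 ± 0.24 in SK-MEL-147. SNHG16, at 130 to 165 CPM with INK128 in A549, differed from doxorubicin by 0.07 there and by 0.09 in SK-MEL-147 and passed neither test. In A549 the higher members numbered 11 without doxorubicin replicate 2 or 3, and against palbociclib 10 without INK128 replicate 1 or palbociclib replicate 2 or 3. The single lower call was lost without any 1 of 4 libraries against doxorubicin (doxorubicin replicate 1 or 2, INK128 replicate 2 or 3) and of 3 against palbociclib (INK128 replicate 2 or 3, palbociclib replicate 2); with the block SNHG27 joined it against doxorubicin, making 2.

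Between palbociclib and doxorubicin no member of 29 was called in either line by edgeR, where 0.0% of all genes in A549 and 0.0594% in SK-MEL-147 were called. At an unadjusted p below 0.05 (edgeR) there were 3 members in A549 and 2 in SK-MEL-147, and the share of all genes at that threshold was not counted. DESeq2 called 1 member in A549, SNHG29, where it called 31 of 19550 genes. In SK-MEL-147 it called 0 members, where it called 446 of 18516 genes. The members' differences ran from -0.37 to 0.53 in A549 and from -0.76 to 0.89 in SK-MEL-147.

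The lines differed in how they responded, always in the same direction among the members called. The INK128 response was lower in SK-MEL-147 than in A549 for 5 of 30 members and higher for 0, where 5.42% of 21761 genes were lower and 6.51% higher. The 30 include SNHG26, not tested within SK-MEL-147, and SNHG31, not tested within A549. The doxorubicin response was lower for 6 and higher for 0 (11.3% and 8.49% of all genes), and the palbociclib response lower for 9 and higher for 0 (10.8% and 8.37%). The median difference of all genes was itself -0.03, -0.10 and -0.10, and that of the members -0.44, -0.24 and -0.46. The palbociclib doses differed between the lines, as did those of INK128, so line and dose cannot be told apart there. The doxorubicin dose was the same. The lines may have been prepared apart, so line and batch cannot be told apart in any comparison between them, the untreated one included.

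SNHG29 differed in all 3 responses, by -1.03 ± 0.20 with INK128, -1.08 ± 0.20 with doxorubicin (adjusted p = 0.000355) and -1.64 ± 0.20 with palbociclib (adjusted p = 3.88e-06). With palbociclib it rose in A549 and fell in SK-MEL-147 (-0.75 ± 0.16, adjusted p = 0.000557). GAS5 did the same (-0.72 ± 0.19 in SK-MEL-147, adjusted p = 0.00392, and line difference -1.59 ± 0.33, adjusted p = 0.00127), but its call in A549 was lost without palbociclib replicate 1. So did SNHG8 (-0.44 ± 0.12 in SK-MEL-147, adjusted p = 0.00509, and line difference -1.47 ± 0.21, adjusted p = 2.24e-05). ZFAS1 differed by -1.60 ± 0.39 (adjusted p = 0.00442), SNHG5 by -1.48 ± 0.29 (adjusted p = 0.000711), EPB41L4A-AS1 by -1.32 ± 0.40 (adjusted p = 0.0196) and SNHG32 by -1.12 ± 0.24 (adjusted p = 0.00151). SNHG14 (-0.92 ± 0.22) and SNHG16 (-0.77 ± 0.19) completed the 9. The number called for INK128 was 3 without A549 control replicate 2 or SK-MEL-147 control replicate 1. For doxorubicin it was 3 without A549 control replicate 1 and 2 without A549 doxorubicin replicate 1 or SK-MEL-147 control replicate 2, 3 or 4. With library size as the only scaling it was 3 for doxorubicin, where 4240 of 21761 genes differed.

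**Figure D4:**
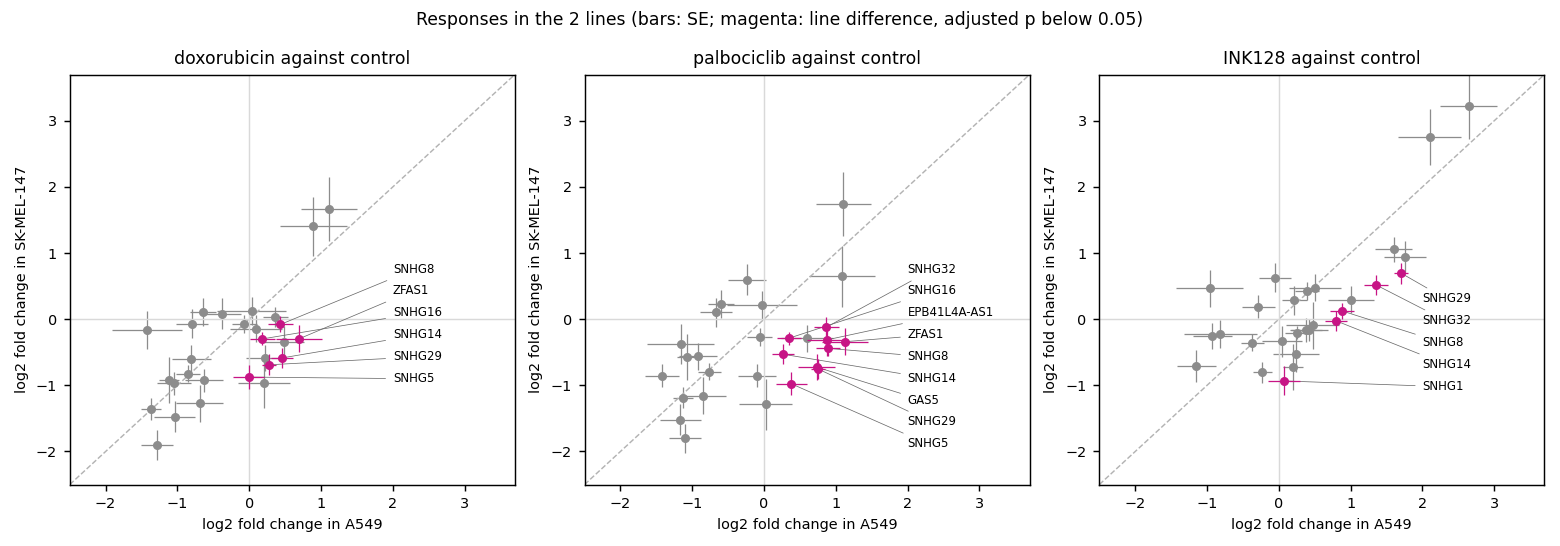
log2 fold change against control in A549 (horizontal) and SK-MEL-147 (vertical) for each host gene tested in both lines, with 1 panel per drug, bars for SE and a dashed line where both are equal. The magenta genes, whose response differed between the lines (6 with doxorubicin, 9 with palbociclib, 5 with INK128), lie below the dashed line.

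In untreated cultures, 12 of 30 members were higher in SK-MEL-147 than in A549 and 5 were lower, where 33.3% and 33.4% of all genes were. The 30 include SNHG26, which failed the count filter within SK-MEL-147, and SNHG31, which failed it within A549. Each entered the joint fit through the line whose own filter it passed, so a difference in its level is not an independent result. SNHG5 was higher by 1.86 ± 0.22 (adjusted p = 4.65e-08), SNHG32 by 1.71 ± 0.18 (adjusted p = 5.88e-09), EPB41L4A-AS1 by 1.10 ± 0.29 (adjusted p = 0.00163) and SNHG29 by 1.09 ± 0.15 (adjusted p = 4.03e-07). SNHG9 was lower by 1.34 (log2 fold change -1.34 ± 0.25, adjusted p = 5.3e-05), SNHG19 by 1.01 (-1.01 ± 0.24) and CCDC18-AS1 by 1.43 (-1.43 ± 0.49). SNHG26, host of SNORD93, averaged 10.98 CPM in untreated A549 and had 0 counts in the 4 untreated SK-MEL-147 samples. A count of 0 over that group allows up to 0.0241 CPM by library size (3 counts), which covers counting error only. The other groups of that line held 1 count each.

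The hosts were also grouped by the RNA they carry according to RefSeq positions. With doxorubicin in SK-MEL-147, where 28.9% of all genes were lower, 7 of 11 tested box C/D hosts fell and 0 rose (median -0.58), and 5 of 10 box H/ACA hosts fell and 0 rose (median -0.74). In A549, where 20.9% of all genes were lower, 4 of 12 box C/D hosts fell and 2 rose (median 0.14), and 4 of 9 box H/ACA hosts fell and 0 rose (median -0.63). With INK128 in A549, where 20.5% of all genes were higher, 4 of 12 box C/D hosts rose and 1 fell, and 2 of 9 box H/ACA hosts, near that share, rose and 1 fell. All 3 tested scaRNA hosts, SNHG10, SNHG20 and SNHG21, fell with doxorubicin in A549, and SNHG10 alone of them fell in SK-MEL-147. No test between these classes was made.

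Members with an annotated tract start, the sequences shown above among them, and members without one were set side by side. With INK128 in A549, 5 of 15 with such a start rose and 0 fell (median 0.39), while 4 of 14 without it rose and 2 fell (median -0.12). Among all other genes in A549, 24.2% of those with a tract start rose, with a median of 0.08, and 19.8% of those without, with a median of -0.01. In SK-MEL-147, 5 of 15 rose and 1 fell (median 0.13), against 3 of 14 and 3 (median -0.09); among all other genes there 33.74% with a tract start and 28.94% without one rose, so the members' share with a tract start was near that of other such genes. SNHG32, counted here as without a tract, has one at its RefSeq start. Of the 4 hosts that share the letters CTTTTC, GAS5 and SNHG29 rose with INK128 in A549 by 1.60 and 1.70, while SNHG16 changed by 0.26 ± 0.17 (adjusted p = 0.252) and SNHG19 by -0.05 ± 0.22 (adjusted p = 0.875). In SK-MEL-147 GAS5, SNHG29 and SNHG19 rose, by 1.06, 0.70 and 0.63, and SNHG16 changed by -0.20 ± 0.10 (adjusted p = 0.087). The palbociclib response was lower in SK-MEL-147 than in A549 for 6 of 15 members with a tract start and 3 of 15 without, and higher for 0. Among all other genes it was lower for 12.59% with a tract start and 10.62% without, and higher for 10.64% and 8.04%. Whether members with and without a tract start differed was not tested.

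The other genes of the snoRNA pathway were mostly lower than control with each drug. Of all genes, 19.7% (A549) and 28.9% (SK-MEL-147) were lower with INK128, 20.9% and 28.9% with doxorubicin and 21.1% and 28.7% with palbociclib. Of 4 box C/D snoRNP core genes, INK128 lowered 2 in A549 and 4 in SK-MEL-147 and raised 0, with NOP58 at -0.56 ± 0.10 and -1.11 ± 0.16 (adjusted p = 0.00156 and 1.75e-05). Of 4 box H/ACA core genes it lowered 3 and 4, with DKC1, the pseudouridine synthase, at -0.71 ± 0.11 and -1.25 ± 0.12 (adjusted p = 0.000535 and 5.39e-07). Of 11 genes for snoRNP assembly and transport it lowered 9 in A549 and 11 in SK-MEL-147, with the ATPase gene RUVBL1 at -0.70 ± 0.13 and -1.15 ± 0.13. Doxorubicin lowered 4 of 4 box C/D core genes in each line, with FBL, the methyltransferase fibrillarin, at -1.59 ± 0.14 and -2.91 ± 0.22 (adjusted p = 7.9e-06 and 1.12e-08), and palbociclib lowered 3 of 4 in each line, with FBL at -1.58 ± 0.14 and -2.70 ± 0.21. In both lines these 2 drugs lowered 3 of 4 box H/ACA core genes, and they lowered 9 (A549) and 9 to 10 (SK-MEL-147) of the 11 assembly genes.

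Protein-coding snoRNA hosts were split by function. With INK128, 20.5% of all genes in A549 and 29.8% in SK-MEL-147 were higher, and 19.7% and 28.9% were lower. Of 29 that encode parts of the translation machinery, INK128 raised 21 and lowered 2 in A549 (median 0.80) and raised 20 and lowered 2 in SK-MEL-147 (median 0.60), with TPT1, the translationally controlled tumour protein gene, at 1.43 ± 0.27 and 1.26 ± 0.17, and RPL12, a ribosomal protein gene, at 1.40 ± 0.24 and 1.15 ± 0.22. Of 16 with other functions it raised 0 and lowered 11 and 13 (medians -0.61 and -0.73), with HSPA8, a heat shock cognate chaperone, at -0.88 ± 0.25 and -1.33 ± 0.24. The latter list holds NOP56 and DKC1, which are also in the core lists. Doxorubicin raised 1 and lowered 6 of the 29 in A549 and lowered 15 in SK-MEL-147, and palbociclib raised 3 and lowered 2 in A549 and lowered 13 in SK-MEL-147. Of all genes, 20.9% (A549) and 28.9% (SK-MEL-147) were lower with doxorubicin and 21.1% and 28.7% with palbociclib. In A549, 22.4% and 22.2% were higher. The 6 of 29 lowered by doxorubicin in A549 were near the share of all genes. Of 9 tested genes from a list of other known tract-start genes, INK128 raised 6 in A549, the translation factor genes EIF4B (1.10 ± 0.18) and PABPC1 (0.95 ± 0.18) among them. In SK-MEL-147 it raised 2, EEF1A1 and EIF3F, and lowered 1, HNRNPA1 (-0.48 ± 0.19, adjusted p = 0.0394), which encodes an RNA-binding protein of splicing and is not a translation factor; the list also holds NAP1L1, a histone chaperone gene. Of the 5 hosts long known for a tract start, GAS5, SNHG1, SNHG3, SNHG5 and SNHG6, INK128 raised 1 in A549 and raised 1 and lowered 1 in SK-MEL-147, and doxorubicin lowered 2 and 4. The 1 of 5 raised by INK128 in A549 was near the 20.5% of all genes.

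Of 10 nonsense-mediated decay factors, INK128 lowered 3 in A549 and 5 in SK-MEL-147, doxorubicin 4 and 6, and palbociclib 4 and 7, where the shares of all genes lower were those given above for the snoRNP lists, and 3 of 10 is near the 19.7% of A549 with INK128. UPF2 stood at -0.61 ± 0.12 in A549 and -0.51 ± 0.11 in SK-MEL-147 with doxorubicin. Of 6 genes for snoRNA processing and decay, INK128 raised 1 and lowered 2 in A549 and lowered 5 in SK-MEL-147, and doxorubicin and palbociclib did the same by count. The shares of all genes lower were again those given above. In A549, 20.5% of all genes were higher with INK128, 22.4% with doxorubicin and 22.2% with palbociclib, and the 1 of 6 raised was near these shares.

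**Figure D5:**
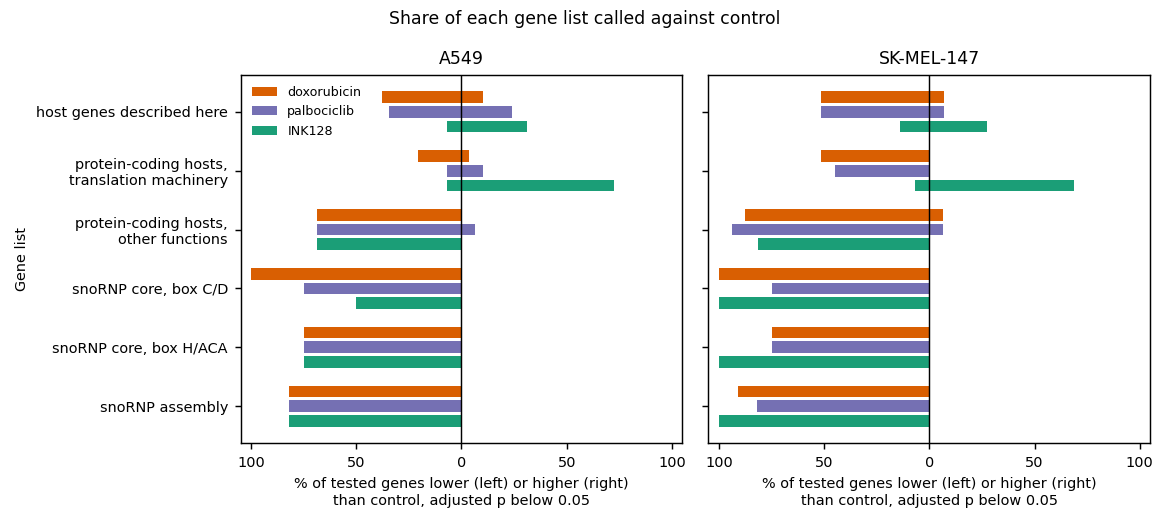
Share of the tested genes of each list (rows) called higher (to the right) or lower (to the left) than control in A549 and SK-MEL-147, in percent, by drug (colours). With INK128 the bar of the protein-coding hosts of the translation machinery points to the right (21 and 20 of 29) and those of the snoRNP lists to the left.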

How the data were processed

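RNA from 32 libraries was sequenced from polyadenylated RNA with a stranded kit, per the labels' protocols. The deposited values are raw read counts per gene, made by the authors with STAR 2.7.10a and featureCounts on GRCh38.p13, per the submitters' processing notes. The annotation release, the strand setting and the handling of multiply mapped reads are not given in the sources used here. Gene names came from a table of Ensembl IDs and GENCODE 29. The members and gene lists were chosen with earlier results of these data known.

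Counts were tested with edgeR 4.0.16 (quasi-likelihood F test, TMM factors, filterByExpr by group) in R 4.3.3. Each line was fitted with its 4 groups, and differences between lines came from a joint fit of 8 groups. P-values were adjusted by Benjamini-Hochberg over all genes tested, and 0.05 was the threshold. A549 libraries 2 and 2-2 carry the same replicate number and were added. The steps were tested on simulated data. Printed CPM are scaled by TMM within each line, so levels are compared between lines only in the joint fit.

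Genes named in full are the 4 members without an SNHG symbol, the 8 SNHG members with the highest mean CPM, and per comparison with control the 3 largest called rises and falls with at least 1 CPM and no overlap of replicates; of each gene list, up to 2 called genes per direction with at least 10 CPM. Other members and overlap partners are named with values after these were seen. Same-numbered samples deviated together (correlation above 0.1 in every pair) in all A549 comparisons (0.164 to 0.815) and in SK-MEL-147 except doxorubicin against control (lowest 0.0769) and INK128 against palbociclib (lowest 0.0667). Tract starts were scanned in GENCODE transcripts after the data had been seen. Alternatives were DESeq2 1.42.0, other scalings, no filter, a replicate block, mitochondrial genes left out and libraries left out. Intervals and floors cover counting error only.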

Additional observations from a re-analysis of the deposited data

Results flagged for a closer look

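Of 84 groups of 4 samples examined, 5 held a sample whose gap to the others passed Dixon's 95% critical value; chance flags about 1 in 20 groups. In SK-MEL-147 with INK128, replicate 1 was high for ZFAS1 (91.15 CPM, the others 45.24 to 51.01) and for SNHG4 (70.3 CPM, the others 33.1 to 39.45), and replicate 4 was low for SNHG30 (3.647 CPM, the others 4.667 to 4.784). SNHG16 stood at 135.3 CPM in SK-MEL-147 doxorubicin replicate 1 (the others 118.1 to 121), and SNHG8 at 27.46 CPM in palbociclib replicate 3 (the others 31.47 to 31.61).

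The response to a drug differed between the lines (SK-MEL-147 minus A549, log2, edgeR joint fit) for 18 named results. With INK128 these were SNHG1 (-1.023, adjusted p = 0.0463), SNHG14 (-0.845, adjusted p = 0.0112), SNHG29 (-1.027, adjusted p = 0.00124) and SNHG8 (-0.7719, adjusted p = 0.0155). With doxorubicin they were SNHG14 (-1.165, adjusted p = 0.000395), SNHG16 (-0.5985, adjusted p = 0.0276), SNHG29 (-1.084, adjusted p = 0.000355), SNHG5 (-0.9834, adjusted p = 0.0169), SNHG8 (-0.6335, adjusted p = 0.0332) and ZFAS1 (-1.111, adjusted p = 0.0423). With palbociclib they were EPB41L4A-AS1 (-1.325, adjusted p = 0.0196), GAS5 (-1.588, adjusted p = 0.00127), SNHG14 (-0.9246, adjusted p = 0.0037), SNHG16 (-0.7659, adjusted p = 0.0058), SNHG29 (-1.638, adjusted p = 3.88e-06), SNHG5 (-1.484, adjusted p = 0.000711), SNHG8 (-1.467, adjusted p = 2.24e-05) and ZFAS1 (-1.599, adjusted p = 0.00442).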

How the results depend on the processing

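Of 74 called results for single named members, 52 kept direction and call under every alternative run; over 1890 alternatives of 126 results, 92 lost a call, 43 gained one and 1 reversed, SNHG25 with palbociclib in A549, at -0.64 (adjusted p = 0.0307) with replicate 1 of all A549 groups left out against 0.02 in the full data. The cause was not tested. With the replicate block no call was lost among the comparisons within a line; it moved members lower with INK128 in A549 to 4, members lower with INK128 against doxorubicin in A549 to 2 and members higher with doxorubicin in A549 to 6, and changed the other within-line counts by at most 1.5 times (members lower with INK128 in SK-MEL-147 went from 4 to 6); it was not run for the line differences or the untreated comparison. In A549 the block called 10729 (INK128 against control), 10680 (INK128 against doxorubicin) and 11014 (doxorubicin against control) of 19550 genes in either direction. With replicate 1 of all A549 groups left out, 5 members were lower with INK128 in A549, where 11172 of 20807 genes were called in either direction. In that setting 3 members differed between lines with doxorubicin, where 4469 of 22084 genes did. With A549 library 2-2 alone, 0 were lower with INK128 against doxorubicin and 0 against palbociclib, where 7847 and 7951 of 19535 genes were called in either direction. With library 2 alone, 1 was higher with doxorubicin in A549, where 6663 of 19645 genes were called in either direction. In that setting 3 differed between lines with INK128 and 2 with doxorubicin, where 2043 and 3657 of 21821 genes did. With library size alone, 1 was higher with doxorubicin in A549, where 8258 of 19550 genes were called in either direction. There 3 differed between lines with doxorubicin, where 4240 of 21761 genes did. With no filter, 1 was higher with doxorubicin in A549 and 0 were lower with INK128 against doxorubicin there, where 8290 and 7703 of 39953 genes were called in either direction. Also with no filter, 1 was higher with palbociclib in SK-MEL-147, where 11139 of 39152 genes were called in either direction. DESeq2 called 1 member between palbociclib and doxorubicin in A549, where 31 of 19550 genes were called.

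Leaving out 1 library at a time, members higher and lower with INK128 numbered 8 to 9 and 1 to 2 in A549 and 6 to 9 and 2 to 7 in SK-MEL-147. With doxorubicin they numbered 1 to 4 and 6 to 13 in A549 and 2 and 10 to 15 in SK-MEL-147; with palbociclib 3 to 7 and 7 to 11 in A549 and 1 to 2 and 13 to 15 in SK-MEL-147. INK128 against doxorubicin gave 11 to 19 and 0 to 1 in A549 and 14 to 21 and 1 in SK-MEL-147, and against palbociclib 10 to 17 and 0 to 1 in A549 and 16 to 21 and 1 in SK-MEL-147. Line differences numbered 3 to 7 (INK128), 2 to 9 (doxorubicin) and 8 to 11 (palbociclib), untreated differences 14 to 17, and palbociclib against doxorubicin 0 in both lines. The shares of all genes called with 1 library left out are not given here, so these ranges cannot be set against them.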
